A study of Homo sapiens with 2 samples.

Results

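The genes described here are 57 neighbours on chromosome 3, running from DAG1 on the short arm, across the centromere, to IFT57 on the long arm. They were taken from both count tables by symbol, out of 24462 gene symbols in all, and the stretch was chosen by its ratio of RT-R-MDA-MB-231 to MDA-MB-231 counts, which was low. The values that selected the members are thus those described below, and none of them is a test of the block. All 57 members had at least 20 counts in a library, the minimum for calling a gene measured, as did 12644 symbols in all. The stretch held 284 symbols of the tables, of which 155 were measured, and the 98 measured genes that are not members are described beside them.

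RT-R-MDA-MB-231 is a radiotherapy-resistant line derived from MDA-MB-231 with X-rays, in 2 Gy doses that added up to 50 Gy. MDA-MB-231, the parental line, is an established human cell line from a triple negative breast cancer, which lacks estrogen and progesterone receptors and HER2 amplification. Both lines grew in the same medium with 10% serum, and neither is given as a single clone or a pool in the labels. Each line had 1 library, made from 500 ng of total RNA with a 3' tag kit that reads mainly the ends of polyadenylated transcripts. No difference below could be checked against replicates, and none has a p-value.

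The short arm of chromosome 3 is known for a cluster of growth-restraining genes, among them RASSF1, NPRL2, TUSC2, BAP1 and PBRM1, and for its frequent loss in carcinomas of the lung, kidney and breast. Genes that lie side by side in this stretch mostly have unrelated jobs, from polycomb and remodelling factors to enzymes of heme and glycogen synthesis. DNA copies were not measured in the libraries, which hold messenger RNA counts only.

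The RT-R library held 10014804 counts and the parental library 9255008, and the trimmed mean of M-values set the RT-R to parental size ratio at 1.12. The 6 listed markers of mesenchymal-type breast lines, VIM, CD44, EGFR, AXL, CAV1 and MSN, summed to 34161 counts in RT-R and 30383 in parental cells. ESR1 had 1 count in RT-R and 0 in parental cells, and PGR had 0 in both. Of the other luminal genes listed as absent, KRT19 (2585 counts in RT-R, 3484 in parental), GATA3 (113 counts in RT-R, 152 in parental), CDH1 (68 counts in RT-R, 32 in parental) and FOXA1 (7 counts in RT-R, 11 in parental) were present in both lines. The blood cell markers PTPRC and CD3E had 0 counts in both lines. The listed fibroblast genes summed to 106 counts in RT-R and 111 in parental cells, and the endothelial genes to 56 in RT-R and 224 in parental cells, most of them from PECAM1.

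Along the block the members were lower in RT-R cells as a rule, though by unequal amounts. Their summed counts were 29847 in RT-R and 37735 in parental cells. The median log2 ratio of RT-R to parental scaled counts was -0.49, with quartiles of -0.72 and -0.23, against a median of -0.01 over all measured genes. On a linear scale the median member was 1.41-fold lower. The ratio was under 1 for 53 of the 57 members, against 51.0% of all measured genes. For 44 members the 95% interval of the ratio lay wholly under 1, against 30.4% of all measured genes, and for 0 members wholly above 1 (27.7% of all genes). These exact conditional intervals cover counting error within the libraries and not variation between cultures. A fall was called at 1.5-fold or more with an interval under 1, which held for 18 members (11.9% of all measured genes), and 5 of these passed 2-fold (4.0% of all). A rise of 1.5-fold with an interval above 1 was called for 0 members and for 13.8% of all measured genes, and a rise of 2-fold for 0 members and 6.95% of all. Nothing is read from these shares about the members, since the same contrast chose them. How the 57 were picked from the 155 measured genes of the stretch is not stated, and 7 of the 98 others had an interval wholly above 1.

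**Figure D1:**
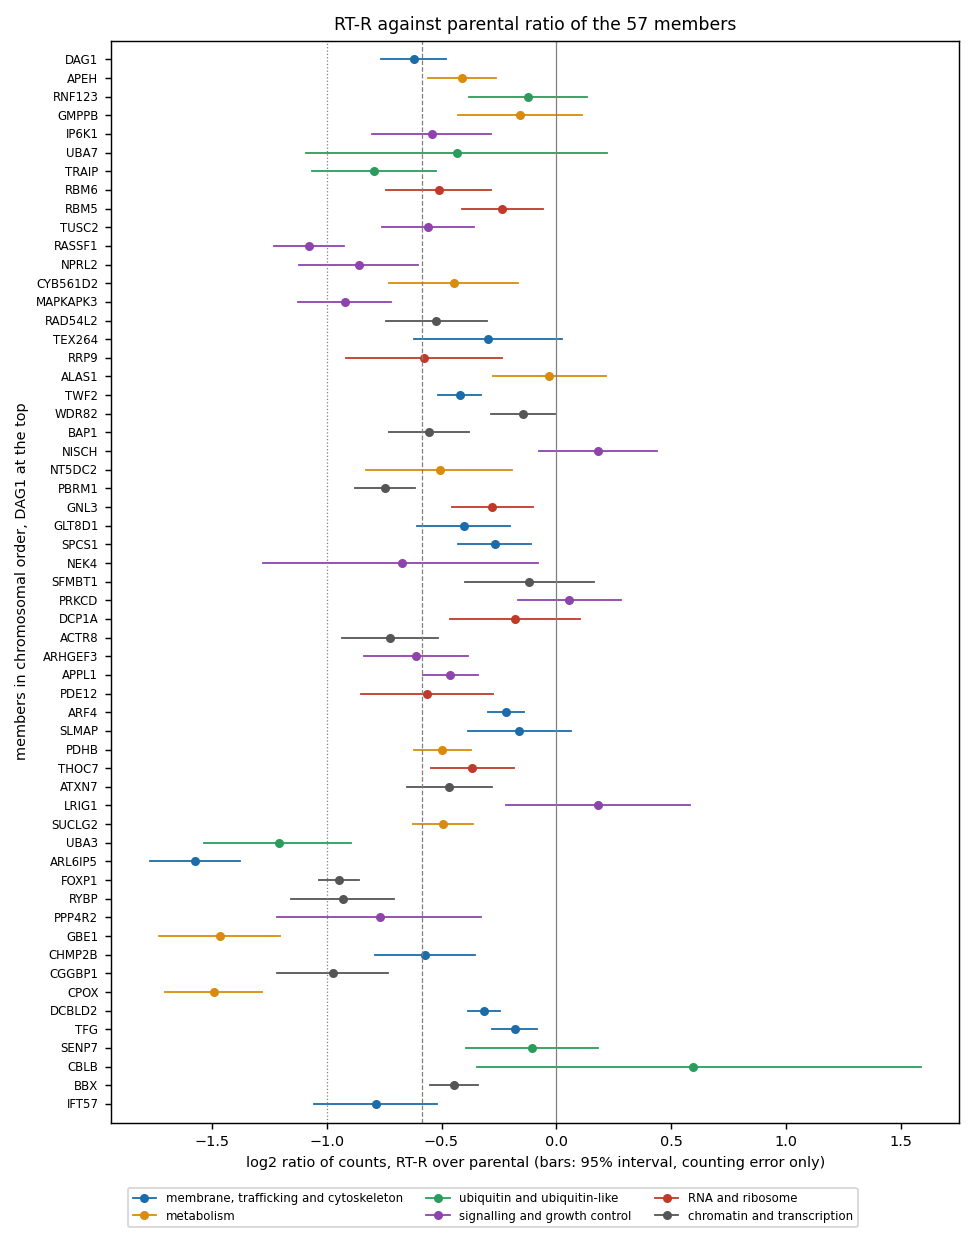
Log2 ratio of RT-R over parental counts for each of the 57 members in chromosomal order, DAG1 at the top and IFT57 at the bottom, coloured by role. Points are ratios of scaled counts and bars 95% intervals for counting error, and the dashed and dotted lines mark ratios 1.5-fold and 2-fold lower. Most points lie left of 0, the run from UBA3 to CPOX lies farthest left, and CBLB, NISCH, LRIG1 and PRKCD lie to the right with intervals that reach 0.

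The lowest ratios belonged to members of very different function. ARL6IP5, a membrane protein of the endoplasmic reticulum, had 291 counts in RT-R and 776 in parental cells, so it was 2.97-fold lower (2.60 to 3.41). CPOX, coproporphyrinogen oxidase of heme synthesis, had 257 counts in RT-R and 648 in parental cells, 2.81-fold lower (2.43 to 3.26). GBE1, the glycogen branching enzyme, had 170 counts in RT-R and 421 in parental cells, 2.76-fold lower (2.31 to 3.32). The intervals of these 3 genes overlapped each other. UBA3, the catalytic subunit of the enzyme that activates NEDD8, had 122 counts in RT-R and 253 in parental cells, 2.31-fold lower (1.86 to 2.89). RASSF1, a scaffold protein of Hippo and RAS signalling, had 540 counts in RT-R and 1021 in parental cells, 2.11-fold lower (1.90 to 2.34).

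At the other end, 4 members had more scaled counts in RT-R, each with an interval that included equal expression. CBLB, a ubiquitin ligase that restrains receptor signalling, had only 27 counts in RT-R and 16 in parental cells, a ratio of 1.51 (0.786 to 3.01). NISCH, an integrin-binding protein, had 287 counts in RT-R and 227 in parental cells, a ratio of 1.13 (0.949 to 1.36). LRIG1, a membrane inhibitor of the EGF receptor family, had 120 counts in RT-R and 95 in parental cells, a ratio of 1.13 (0.858 to 1.5). PRKCD, protein kinase C delta, had 362 counts in RT-R and 312 in parental cells, a ratio of 1.04 (0.892 to 1.21). The next highest members, ALAS1, SENP7, SFMBT1 and RNF123, had ratios of 0.979, 0.928, 0.922 and 0.918, again with intervals spanning 1.

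The promoters of the lowest 3 members and of the highest 3 are shown so that the ends of the range can be read side by side. They are RefSeq sequences on GRCh38.p14, from 250 bases before to 50 bases after the annotated start, 5′ to 3′ on the strand of the gene. They lie at chr3:69084687-69084986 on the plus strand (ARL6IP5), chr3:98593562-98593861 on the minus strand (CPOX), chr3:81761596-81761895 on the minus strand (GBE1), chr3:105869352-105869651 on the minus strand (CBLB), chr3:52455354-52455653 on the plus strand (NISCH) and chr3:66501072-66501371 on the minus strand (LRIG1). Capitals mark matches to CCAAT, to GGGCGG or to TATAAA on either strand.
ARL6IP5: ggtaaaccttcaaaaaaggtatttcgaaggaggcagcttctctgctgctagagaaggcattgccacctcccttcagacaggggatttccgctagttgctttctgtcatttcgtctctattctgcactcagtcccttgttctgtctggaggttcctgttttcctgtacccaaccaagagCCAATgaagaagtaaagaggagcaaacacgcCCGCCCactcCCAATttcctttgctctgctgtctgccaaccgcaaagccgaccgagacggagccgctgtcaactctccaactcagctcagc
CPOX: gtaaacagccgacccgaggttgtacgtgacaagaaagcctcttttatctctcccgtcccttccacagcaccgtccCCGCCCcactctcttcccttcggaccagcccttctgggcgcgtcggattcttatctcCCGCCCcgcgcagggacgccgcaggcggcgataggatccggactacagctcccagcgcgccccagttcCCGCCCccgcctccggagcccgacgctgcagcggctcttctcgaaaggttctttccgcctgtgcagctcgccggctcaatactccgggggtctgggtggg
GBE1: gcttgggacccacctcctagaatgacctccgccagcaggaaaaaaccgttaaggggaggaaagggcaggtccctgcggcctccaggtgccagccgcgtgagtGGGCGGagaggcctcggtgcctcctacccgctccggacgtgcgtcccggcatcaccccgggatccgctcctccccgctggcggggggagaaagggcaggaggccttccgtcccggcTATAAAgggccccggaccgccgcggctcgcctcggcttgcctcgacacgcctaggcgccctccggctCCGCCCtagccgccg
CBLB: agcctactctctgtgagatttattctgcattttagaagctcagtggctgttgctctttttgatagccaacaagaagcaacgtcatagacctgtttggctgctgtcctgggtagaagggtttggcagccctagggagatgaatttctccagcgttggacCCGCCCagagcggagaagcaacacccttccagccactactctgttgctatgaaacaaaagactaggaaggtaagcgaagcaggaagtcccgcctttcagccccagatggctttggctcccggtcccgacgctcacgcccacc
NISCH: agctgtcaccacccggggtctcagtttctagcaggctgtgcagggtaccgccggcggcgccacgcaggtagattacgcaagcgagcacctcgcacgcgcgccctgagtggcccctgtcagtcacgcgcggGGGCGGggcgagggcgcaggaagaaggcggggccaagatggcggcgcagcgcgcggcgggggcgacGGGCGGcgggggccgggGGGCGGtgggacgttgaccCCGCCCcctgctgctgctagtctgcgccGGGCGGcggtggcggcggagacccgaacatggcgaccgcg
LRIG1: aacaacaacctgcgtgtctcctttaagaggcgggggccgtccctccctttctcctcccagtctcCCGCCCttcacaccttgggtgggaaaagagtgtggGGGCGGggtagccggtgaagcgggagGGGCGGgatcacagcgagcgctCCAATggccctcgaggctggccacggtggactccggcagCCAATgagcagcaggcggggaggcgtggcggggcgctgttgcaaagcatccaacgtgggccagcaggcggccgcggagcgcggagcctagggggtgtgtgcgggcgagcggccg
GGGCGG matched 1, 3 and 2 times in ARL6IP5, CPOX and GBE1, and 1, 5 and 3 times in CBLB, NISCH and LRIG1. CCAAT matched 2 times each in ARL6IP5 and LRIG1 and 0 times in the other four, and TATAAA matched in GBE1 alone of the 6. The dinucleotide CG occurred 10 times in the ARL6IP5 window and 10 in that of CBLB, and 27 to 43 times in the remaining 4, so neither end of the range had a promoter composition of its own in these 6 windows.

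Promoters were found for 49 of the 57 members. The table used had no entry matched for UBA7, BAP1, SPCS1, SFMBT1, ARF4, THOC7, CGGBP1 and SENP7. GGGCGG, the core of the Sp-factor box, was present on either strand in 73.5% of the member promoters, 70.5% of 9390 promoters of measured genes and 44.6% of all 27305 promoters. CCAAT was present in 44.9% of member promoters, 37.1% of those of measured genes and 35.7% of all. TATAAA was present in 12.2%, 5.28% and 12% in the same order, CACGTG in 14.3%, 10.3% and 7.43%, GGAAG in 77.6%, 76.8% and 71.9%, and TGACG in 34.7%, 34.7% and 25%. The median number of CG dinucleotides was 30 in member promoters, 26 in those of measured genes and 14 in all, with a range over members from 6 in ATXN7 to 44 in GNL3. Motif matches overlap where the letters do and describe these windows only.

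Among the 11 chromatin and transcription members, 10 had an interval under 1 and 5 were called lower by 1.5-fold or more, where all measured genes had 30.4% and 11.9%. Their median log2 ratio was -0.56, against -0.01 over all measured genes. FOXP1, a forkhead transcription factor, had 1717 counts in RT-R and 2968 in parental cells, 1.93-fold lower (1.82 to 2.05). CGGBP1, which binds CGG repeats, had 223 counts in RT-R and 393 in parental cells, 1.97-fold lower (1.66 to 2.33), and it overlaps ZNF654 in the reference table. RYBP, a subunit of variant polycomb complexes, had 265 counts in RT-R and 453 in parental cells, 1.91-fold lower (1.63 to 2.23). PBRM1, the bromodomain subunit of the PBAF remodeller, had 788 counts in RT-R and 1186 in parental cells, 1.68-fold lower (1.53 to 1.84). ACTR8 of the INO80 remodeller had 320 counts in RT-R and 474 in parental cells, 1.65-fold lower (1.43 to 1.91). BAP1, a histone deubiquitinase and tumour suppressor, had 478 counts in RT-R and 630 in parental cells, 1.47-fold lower (1.30 to 1.66), short of the 1.5-fold limit. RAD54L2, a helicase-like protein, ATXN7 of the SAGA complex and the HMG-box protein BBX were 1.44-fold, 1.38-fold and 1.36-fold lower. WDR82, a subunit of SET1 histone methyltransferases, had nearly equal raw counts, 856 in RT-R and 848 in parental cells, with a ratio of 0.905 (0.822 to 0.996). The highest was SFMBT1, a polycomb-related MBT protein, with 217 counts in RT-R and 211 in parental cells and a ratio of 0.922 (0.759 to 1.12).

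PBRM1 and GNL3 start 7 bases apart on opposite strands, so that their promoter windows share 106 bases. GNL3 encodes nucleostemin, a nucleolar GTP-binding protein. The window of PBRM1, at chr3:52685864-52686163 on the minus strand of GRCh38.p14, is shown because the pair reads from a common stretch, with capitals as above.
PBRM1: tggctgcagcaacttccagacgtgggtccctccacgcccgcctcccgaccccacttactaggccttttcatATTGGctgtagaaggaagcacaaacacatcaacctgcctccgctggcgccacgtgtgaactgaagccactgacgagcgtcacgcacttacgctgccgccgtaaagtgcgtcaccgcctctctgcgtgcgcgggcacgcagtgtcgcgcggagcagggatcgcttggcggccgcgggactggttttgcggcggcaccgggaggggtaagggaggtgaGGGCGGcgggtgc
GNL3 had 503 counts in RT-R and 547 in parental cells, 1.21-fold lower (1.07 to 1.37). This interval does not overlap that of PBRM1, given above. The 2 transcripts of the shared stretch thus differed in ratio by more than the counting error that these intervals cover. GNL3 overlaps GLT8D1 at its other end in the reference table, and whether reads were shared is not known.

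The 12 signalling and growth control members had a median log2 ratio of -0.58. Of these, 6 were called lower by 1.5-fold or more (11.9% of all measured genes) and 9 had an interval under 1 (30.4%). Besides RASSF1, the kinase MAPKAPK3, which acts downstream of stress-activated MAP kinases, had 321 counts in RT-R and 545 in parental cells, 1.89-fold lower (1.65 to 2.18). NPRL2, a subunit of the GATOR1 complex that restrains mTORC1, had 201 counts in RT-R and 327 in parental cells, 1.81-fold lower (1.52 to 2.17). PPP4R2, a regulatory subunit of protein phosphatase 4, was 1.70-fold lower (1.25 to 2.33), the kinase NEK4 1.59-fold (1.06 to 2.42) and the guanine nucleotide exchange factor gene ARHGEF3 1.53-fold (1.31 to 1.79). The intervals of PPP4R2 and NEK4 are wide, since NEK4 had 42 counts in RT-R and 60 in parental cells and PPP4R2 had 72 in RT-R and 110 in parental cells. TUSC2, the inositol phosphate kinase IP6K1 and the endosomal adaptor APPL1 were 1.47-fold, 1.45-fold and 1.38-fold lower, none of them called. NISCH, LRIG1 and PRKCD completed the list. RASSF1, TUSC2, NPRL2 and CYB561D2 are close neighbours of the growth-restraining cluster, and their log2 ratios were -1.08, -0.56, -0.86 and -0.45.

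Of the 9 metabolic members, 2, CPOX and GBE1, were called lower (11.9% of all measured genes). A further 5 were lower by less than 1.5-fold, which makes 7 with an interval under 1 (30.4% of all). The intervals of 2, ALAS1 and GMPPB, spanned 1. The median log2 ratio of the 9 was -0.49. PDHB, the beta subunit of pyruvate dehydrogenase E1, had 968 counts in RT-R and 1224 in parental cells, 1.41-fold lower (1.30 to 1.54). SUCLG2, the GTP-specific beta subunit of succinyl-CoA ligase, had 878 counts in RT-R and 1108 in parental cells, 1.41-fold lower (1.29 to 1.54). NT5DC2, a nucleotidase-domain protein, CYB561D2, a transmembrane cytochrome, and APEH, an acylpeptide hydrolase, were 1.42-fold, 1.36-fold and 1.33-fold lower. GMPPB, which makes GDP-mannose, had 228 counts in each library and a ratio of 0.897 (0.743 to 1.08). The heme pathway had a member at each end of this list. ALAS1, its rate-limiting first enzyme, had 284 counts in RT-R and 260 in parental cells, a ratio of 0.979 (0.825 to 1.16), and its interval lay clear of that of CPOX.

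Of the 6 ubiquitin and ubiquitin-like members, 2, UBA3 and TRAIP, were called lower (11.9% of all measured genes). The intervals of the other 4 spanned 1, and the list median was -0.28. TRAIP, a ubiquitin ligase of replication repair, had 190 counts in RT-R and 295 in parental cells, 1.73-fold lower (1.44 to 2.09). UBA7, the activating enzyme of ISG15, had 38 counts in RT-R and 46 in parental cells, and its interval for a fold lower, 0.859 to 2.13, leaves a 1.5-fold difference undetectable at this depth. RNF123, a ubiquitin ligase, had 259 counts in RT-R and 253 in parental cells, a ratio of 0.918 (0.769 to 1.10), and overlaps GMPPB and AMIGO3 in the reference table. SENP7, a SUMO protease, had 206 counts in RT-R and 199 in parental cells, a ratio of 0.928 (0.760 to 1.13).

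The 12 membrane, trafficking and cytoskeleton members had a median log2 ratio of -0.36. Of these, 10 had an interval under 1 (30.4% of all measured genes) and 3 were called lower (11.9%). Besides ARL6IP5, these were IFT57, a subunit of the intraflagellar transport machinery, with 194 counts in RT-R and 300 in parental cells, 1.72-fold lower (1.43 to 2.08), and DAG1, the laminin receptor dystroglycan, with 713 counts in RT-R and 983 in parental cells, 1.54-fold lower (1.39 to 1.70). DCBLD2, ARF4 and TFG, all with many counts, had small differences and narrow intervals. DCBLD2, a transmembrane receptor-like protein, had 3324 counts in RT-R and 3708 in parental cells, 1.24-fold lower (1.19 to 1.30). The Golgi GTPase gene ARF4 had 2475 counts in RT-R and 2583 in parental cells, 1.16-fold lower (1.10 to 1.23). TFG, which organises export from the endoplasmic reticulum, had 1680 counts in RT-R and 1708 in parental cells, 1.13-fold lower (1.06 to 1.21). CHMP2B of the ESCRT-III complex, the actin-binding twinfilin TWF2, the glycosyltransferase gene GLT8D1 and the signal peptidase subunit gene SPCS1 were 1.48-fold, 1.34-fold, 1.32-fold and 1.2-fold lower. TEX264, a receptor for autophagy of the endoplasmic reticulum, was 1.23-fold lower with an interval from 0.984 to 1.54. SLMAP, a membrane subunit of the STRIPAK complex, was the highest of the list, with 328 counts in RT-R and 329 in parental cells and a ratio of 0.894 (0.765 to 1.04).

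The 7 RNA and ribosome members lay in a narrow range, from -0.57 to -0.18 on the log2 scale, with a median of -0.37. In 6 of them the interval lay under 1 (30.4% of all measured genes). Of the 7, 0 reached 1.5-fold, where 11.9% of all measured genes were called lower. RRP9, a protein of the box C/D U3 particle of ribosome assembly, had 128 counts in RT-R and 171 in parental cells, 1.49-fold lower (1.18 to 1.89). PDE12, an exonuclease that trims poly(A) tails, was 1.48-fold lower, and THOC7 of the THO export complex 1.29-fold. The splicing regulators RBM6 and RBM5, which are related neighbours, were 1.43-fold (1.22 to 1.67) and 1.18-fold (1.04 to 1.33) lower, and RBM5 overlaps the antisense gene RBM5-AS1, with unknown use of strand. The highest was DCP1A, an activator of mRNA decapping, with 208 counts in RT-R and 211 in parental cells and a ratio of 0.884 (0.726 to 1.08).

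The size of the difference was not even along the block. A run of 9 consecutive members in chromosomal order, from UBA3 to CPOX, was chosen after the values were seen. These had a median log2 ratio of -0.97, and 8 of the 9 were called at least 1.5-fold lower (11.9% of all measured genes). The ninth, CHMP2B, was 1.48-fold lower (1.28 to 1.73). The 42 members before UBA3 had a median of -0.45 with 9 called, and the 6 after CPOX had a median of -0.25 with 1 called, IFT57. When all 155 measured genes of the block were divided into 5 equal stretches of 31, regardless of their values, the medians were -0.54, -0.51, -0.45, -0.93 and -0.39 in order. The fourth stretch, from PSMD6 to NSUN3, held 21 of the 60 genes called at least 1.5-fold lower and 12 of the 19 called at least 2-fold lower. That was 67.7% and 38.7% of its 31 genes, against 11.9% and 4.0% of all measured genes. These totals count overlapping genes separately, among them LSMEM2 and IFRD2, and GPR62 and PCBP4, pairs with nearly the same counts. A running median over 15 genes was lowest, at -1.05, in the window from TMF1 to GBE1. On the DAG1 side outside the block the same running median ran from -0.66, at CIDECP, to 0.04. The 50 members of the short arm had a median of -0.50 and the 7 of the long arm -0.32, the lowest of the long arm being CPOX.

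**Figure D2:**
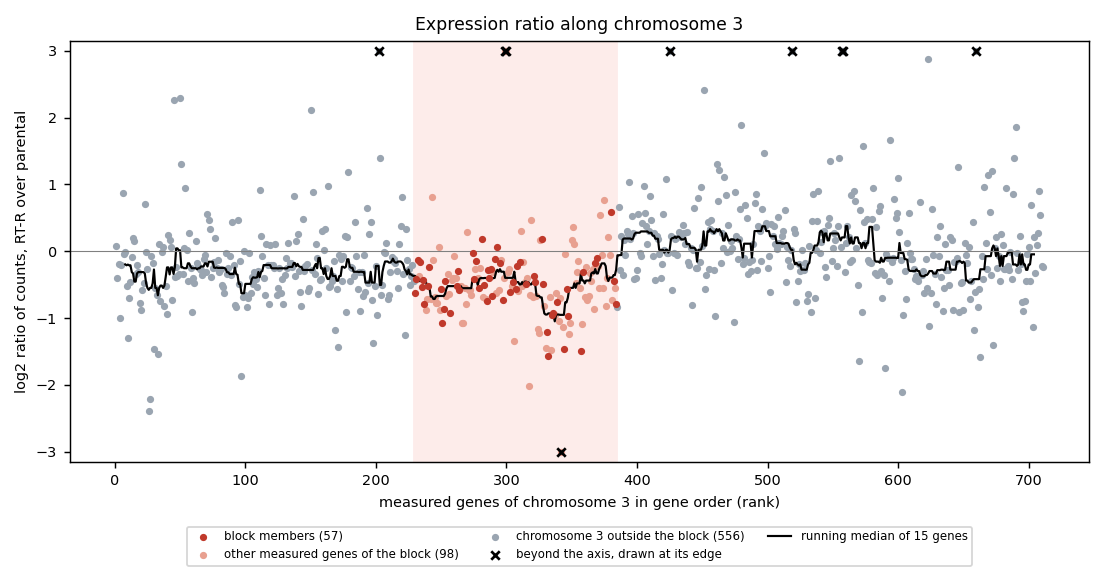
Log2 ratio of RT-R over parental counts for the measured genes of chromosome 3 in gene order, from the short-arm end at the left. Red points are the 57 members, pale points the 98 other measured genes of the block and grey points the rest of the chromosome, the shaded band marks the block, the black line is the running median of 15 genes, and crosses are values beyond the axis. The line lies under 0 throughout the block and falls to -1.05 in the window from TMF1 to GBE1. It also lies mostly under 0 left of the band, down to -0.66 at CIDECP. Just beyond the right edge of the band it lies near or above 0.

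The genes between the members were lower by a similar amount. The 98 other measured genes of the block had a median log2 ratio of -0.55. Of these, 84 had a ratio under 1 (51.0% of all measured genes), 65 an interval under 1 (30.4%) and 7 an interval above 1 (27.7%). Falls of at least 1.5-fold were called for 42 (11.9% of all) and rises for 3 (13.8% of all). In the low run, TMF1, a Golgi protein gene directly before UBA3, had 163 counts in RT-R and 401 in parental cells, 2.74-fold lower (2.28 to 3.31). MITF, the melanocyte and lysosome transcription factor gene, had 66 counts in RT-R and 165 in parental cells, 2.79-fold lower (2.08 to 3.77). C3orf38 had 88 counts in RT-R and 167 in parental cells, 2.12-fold lower (1.63 to 2.77). Before that run, the junction scaffold gene MAGI1, with 245 counts in RT-R and 513 in parental cells, was 2.34-fold lower (2.00 to 2.73). The planar polarity gene PRICKLE2, with 124 counts in RT-R and 249 in parental cells, was 2.24-fold lower (1.80 to 2.80). The peroxisomal oxidase gene ACOX2, with 17 counts in RT-R and 63 in parental cells, was 4.13-fold lower (2.39 to 7.53). LINC00960 had 1 count in RT-R and 31 in parental cells, 34.6-fold lower with an interval from 5.76 to 1409.1. ASB14, which overlaps the member APPL1, was 2.56-fold lower (1.69 to 3.95), at 34 counts in RT-R and 78 in parental cells. GPR62 and PCBP4 overlap and had nearly the same counts, 555 and 602 in RT-R and 1050 and 1134 in parental cells, so they may count the same reads. PCBP4 was 2.10-fold lower (1.90 to 2.32) and GPR62 2.11-fold (1.90 to 2.34). ZNF654, ST3GAL6, EBLN2 and ZNF717, with at most 61 counts in RT-R, were the remaining genes past 2-fold, from 2.09-fold to 2.37-fold lower.

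Overlap of transcripts bears on several members too, since the use of strand in counting is not given. In the reference table, 17 of the 57 members overlap another measured gene, among them the member pairs THOC7 and ATXN7, SPCS1 and NEK4, and PDE12 and ARF4. The 40 members without such an overlap had a median log2 ratio of -0.52, and all 5 members called at least 2-fold lower were among them.

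The 2 ends of the block had different neighbours. Outside DAG1, the nearest 5 measured genes all had ratios under 1. The GTPase gene RHOA had 6641 counts in RT-R and 8458 in parental cells, 1.42-fold lower (1.38 to 1.47). The glutathione peroxidase gene GPX1 had 1381 counts in RT-R and 1496 in parental cells, 1.21-fold lower (1.12 to 1.30). NICN1, with 93 counts in RT-R and 114 in parental cells, was 1.37-fold lower (1.03 to 1.82). The intervals of the other 2 spanned 1. TCTA had 88 counts in RT-R and 102 in parental cells, 1.29-fold lower (0.962 to 1.74), and AMT had 66 counts in RT-R and 68 in parental cells, 1.15-fold lower (0.807 to 1.64). The 30 measured genes nearest to DAG1 on the inside had a median log2 ratio of -0.55, against -0.21 for the 30 nearest on the outside, and with 15 genes a side the medians were closer, -0.43 inside and -0.27 outside. Outside IFT57 the neighbours were mixed. KIAA1524 had 261 counts in RT-R and 418 in parental cells, 1.79-fold lower (1.53 to 2.09), whereas DZIP3, next to it, had 210 counts in RT-R and 119 in parental cells and a ratio of 1.58 (1.26 to 2.00). These neighbours thus differed in direction. PVRL3, with 727 counts in RT-R and 790 in parental cells, was 1.21-fold lower (1.09 to 1.34), and ABHD10, with 282 counts in RT-R and 324 in parental cells, 1.28-fold lower (1.09 to 1.51). PHLDB2 had 636 counts in RT-R and 486 in parental cells and a ratio of 1.17 (1.04 to 1.32). The 30 measured genes nearest to IFT57 on the inside had a median of -0.42 with 26 ratios under 1, and the 30 nearest on the outside a median of 0.24 with 11 ratios under 1. With 15 genes a side the medians were -0.39 inside and 0.19 outside.

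Other large regions were shifted as well, though chromosome 3 beyond IFT57 was not. The 229 measured genes of chromosome 3 before DAG1 had a median log2 ratio of -0.27, and the 327 beyond IFT57 a median of 0.02. Of 23 chromosomes with at least 50 measured genes, only the X chromosome, with a median of -0.78 over 424 genes, lay under the members' median. Chromosome 7 had a median of -0.35 over 601 genes and chromosome 13 a median of 0.56 over 228, the lowest and the highest of the autosomes other than 3. A shift over many neighbours is therefore not particular to this block in these libraries.

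**Figure D3:**
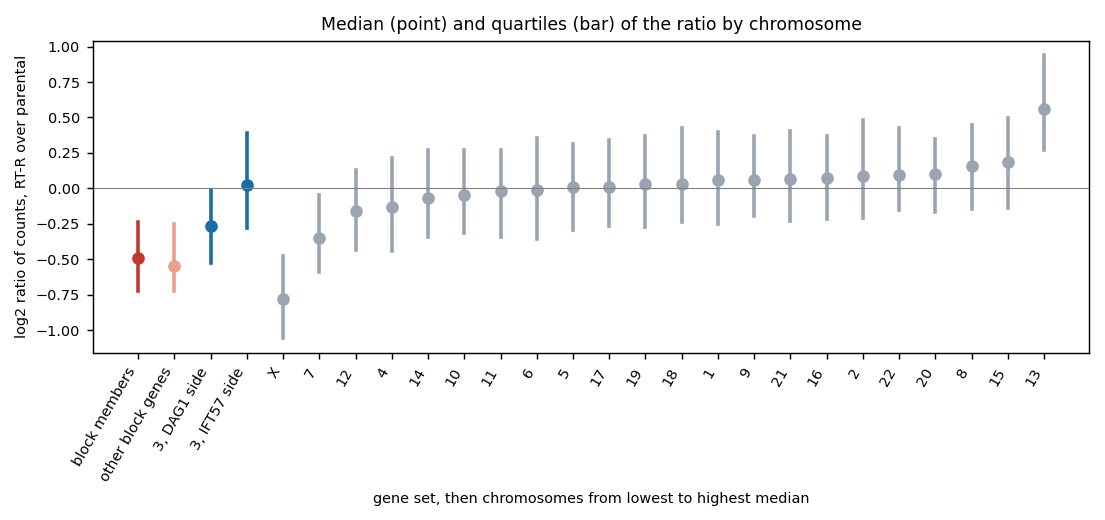
Median (point) and quartiles (bar) of the log2 ratio of RT-R over parental counts for the block members, the other measured genes of the block, the rest of chromosome 3 on the DAG1 side and on the IFT57 side, and then each other chromosome from the lowest to the highest median. The members at -0.49 and the other block genes at -0.55 lie between the X chromosome at -0.78 and chromosome 7 at -0.35.

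Many members work in complexes or pathways whose other parts are encoded elsewhere, and 22 such lists were compared with 24 members in them. The 139 measured partner genes had a median log2 ratio of -0.03, close to the median of -0.01 over all genes. Of these, 13 were called at least 1.5-fold lower (9.35%, against 11.9% of all measured genes). A rise of at least 1.5-fold was called for 10 (13.8% of all measured genes). Without chromosomes 3 and X, the median of 129 partners was -0.01. In 21 of the 22 lists the member, or the median of the 2 members, lay under the median of its partners, a direction that the choice of low members favours. All 10 measured partners of PBRM1 in the PBAF remodeller had higher ratios than PBRM1, with a median of -0.02 and 0 called in either direction. The 9 partners of BAP1 had a median of 0.26, and the 7 of RYBP a median of -0.07, with 0 and 1 called lower. The 4 partners of SPCS1 in the signal peptidase had a median of 0.36, and the 3 of PPP4R2 in protein phosphatase 4 a median of 0.25.

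Some partners were low as well. In neddylation, UBE2M, the conjugating enzyme that works with UBA3, had 836 counts in RT-R and 1697 in parental cells, 2.26-fold lower (2.08 to 2.46), and the 4 partners of UBA3 had a median of -0.42. The 4 partners of PDHB in the pyruvate dehydrogenase complex had a median of -0.42, close to the -0.50 of PDHB itself, with 0 called. The 6 other enzymes of heme synthesis had a median of -0.36, with 1 called lower. ISG15, the modifier that UBA7 activates, had 978 counts in RT-R and 1784 in parental cells, 2.03-fold lower (1.88 to 2.2). IFT22, IFT172, SEC24A and DPM3 were the remaining partners past 2-fold. IFT22 had 54 counts in RT-R and 127 in parental cells, 2.62-fold lower (1.89 to 3.68), while IFT172, of the same transport complex as IFT57, had 73 counts in RT-R and 32 in parental cells, a ratio of 2.05 (1.33 to 3.20). The coat protein gene SEC24A had 130 counts in RT-R and 235 in parental cells, 2.02-fold lower (1.62 to 2.52). DPM3, of dolichol-mannose synthesis, had 399 counts in RT-R and 725 in parental cells, 2.03-fold lower (1.79 to 2.30). TFG was the exception among the lists, with a ratio above the median of its 11 COPII partners, -0.35.

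**Figure D4:**
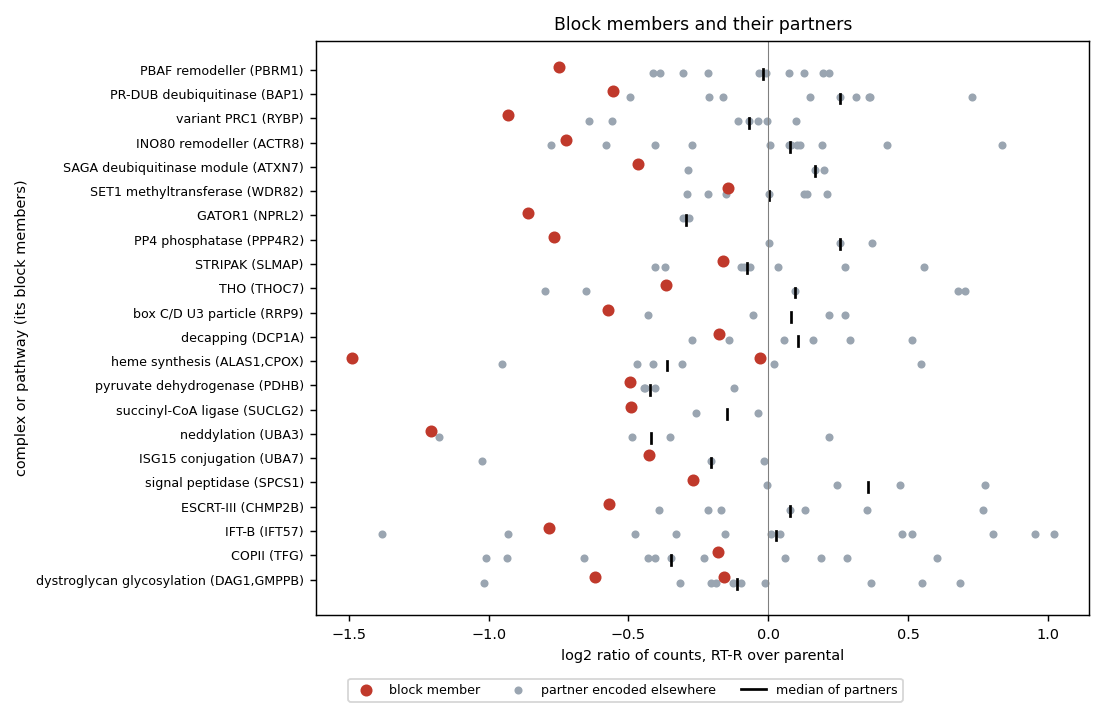
Log2 ratio of RT-R over parental counts for the block members of each complex or pathway (red) and for their measured partners (grey), with the median of the partners as a black bar. Red points lie left of the bar except for ALAS1 and TFG, while the grey points of most lists spread around 0.

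The ratios of the members had weak rank correlations with their depth and with the composition of their transcript ends. Total counts over both libraries ran from 43 in CBLB to 7032 in DCBLD2, and the Spearman rank correlation between total count and log2 ratio was -0.08 over the 57 members, which share the same 2 libraries. For the GC content of the last 300 transcript bases the rank correlation was 0.09. The members from UBA3 to CPOX had AT-rich ends, with a median GC content of 29.7%, against 42.0% for the members before UBA3 and 29.5% for those after CPOX. The part of GC content in the lower ratios of that run was not tested. Among 2355 measured genes outside chromosomes 3 and X in the lowest of 5 bins of GC content, up to 31.3%, the median log2 ratio was 0.02, and the medians of the other bins ran from -0.05 to 0.04. The 18 members in that lowest bin had a median of -0.48 and the 13 in the highest bin a median of -0.43. With depth the medians of genes outside chromosomes 3 and X did change. They fell from 0.22 in the lowest of 5 bins of total count, 20 to 126, to -0.05 in the highest. The 3 members in the lowest count bin, CBLB among them, had a median of -0.43, and the 12 in the highest -0.45.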

How the data were processed

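Total RNA from RT-R-MDA-MB-231 and MDA-MB-231 cells was sequenced as 1 Lexogen QuantSeq library per line, per the labels' protocols. The deposited values are raw counts, whole numbers listed by gene symbol without normalization. The submitters' processing notes name bcl2fastq 2.20.0.422, Bowtie2, bedtools and hg19. Which annotation was used, whether strand was used and how reads with several matches were treated is not given in the sources used here.

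Each table had 25737 rows, 286 repeated symbols were summed, and no member was repeated. Library sizes were scaled on all symbols with edgeR 4.0.16 (R 4.3.3), using its trimmed mean of M-values (TMM). Log2 ratios used scaled counts plus 0.5. Fold ratios used no pseudocount and carry an exact conditional (Clopper-Pearson) 95% interval (scipy 1.17.1, Python 3.11.15). Intervals cover counting error only. Reads carry no stated molecular identifiers, so copies of 1 molecule may be counted separately, which would make the intervals too narrow. With 1 library per line no test was possible. Gene order came from the RefSeq table of GRCh38.p14, which placed 98.6% of measured genes, and gave order, overlaps and promoter windows only, since the counts were made on hg19. Transcript ends came from GENCODE v29 and were found for 97.8% of measured genes and all members. The calculation of ratios and intervals was tried on simulated libraries with known changes. These held counting error only and a known size ratio, so they say nothing about variation between cultures or about the scaling.

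All 57 members are named, with counts and intervals for the 12 lowest, the 8 highest, the ends of each role list, 5 neighbours outside each end, partners past 2-fold, and other block genes at least 2-fold lower (at most 10, by the bound nearest 1) or 1.5-fold higher. Members and lists were chosen with earlier results of these data known. Alternatives were scaling by DESeq2 1.42.0 size factors, total counts, the upper quartile and TMM without chromosomes 3 and X, other count minimums and pseudocount, fold alone, the mean, and other member sets.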

Additional observations from a re-analysis of the deposited data

How the results depend on the processing

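The results were recomputed with other scalings (total counts, median of ratios of DESeq2, upper quartile, and the trimmed mean without chromosomes 3 and X), with no count minimum and one of 100, with a pseudocount of 5, by fold alone and by the mean. The members' median log2 ratio ran from -0.52 to -0.45 over 10 alternatives, of which the set of members without an overlapping gene (-0.52) was chosen after seeing the data. Members called at least 1.5-fold lower numbered 16 to 22, and at least 2-fold lower 5 to 6. The median of the other block genes ran from -0.58 to -0.50, and that of chromosome 3 on the DAG1 side from -0.30 to -0.22. On the IFT57 side it ran from -0.00 to 0.12, and for the partner genes from -0.06 to 0.01, so both changed sign around 0. Each of these medians moved by less than 0.22, the median half-width of the members' intervals. That width is the counting error of single members and does not measure the error of a median. Under 3 other scalings, 171 recomputed single-member ratios all stayed within their own intervals. The size ratios of these scalings, 1.08 to 1.11, were near the 1.12 of TMM. Each scaling shifts all members by nearly the same amount, so this outcome is no separate check of single members. ALAS1 changed sign, to 0.01 with total counts against -0.03 as reported. No paired analysis was possible because each line had 1 library, and for the same reason no library could be left out. Depth limits CBLB, UBA7, NEK4 and PPP4R2 most, whose intervals are wide.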

Other observations

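Within the lowered block, a few genes that are not members were far higher in RT-R cells. WNT5A, a Wnt ligand gene between ACTR8 and ARHGEF3, had 81 counts in RT-R and 0 in parental cells, 24.2-fold higher against a floor of 3 counts in the parental library and at least 19.2-fold higher by the lower limit of its exact interval. The next measured gene, ERC2, which encodes a scaffold protein of presynaptic active zones, had 47 counts in RT-R and 4 in parental cells, a ratio of 10.5 (3.85 to 40.3). SEMA3F, a secreted semaphorin gene, had 53 counts in RT-R and 27 in parental cells, a ratio of 1.76 (1.09 to 2.91). These were the 3 measured genes of the block called at least 1.5-fold higher, and the members on either side of WNT5A and ERC2, ACTR8 and ARHGEF3, were 1.65-fold and 1.53-fold lower.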
